A study of Danio rerio with 4 samples.

Results

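The genes described here encode 10 core cardiac transcription factors of the zebrafish (Danio rerio): nkx2.5, gata4, gata5, gata6, hand2, mef2ca, tbx5a, tbx20, tbx2b and tbx3a. They were chosen by name as central regulators of heart formation, with earlier results of these data known. Each matched 1 row of the deposited table of 16662 genes. All 10 had a mean value of at least 10 and entered the test, as did 12118 genes in all. RNA came from pooled, hand-dissected hearts of embryos aged 48 hpf (hours after fertilisation), 2 pools from fish labelled tie1 KO and 2 from fish labelled tie1 WT, and both groups carried the transgene Tg(kdrl:eGFP), in which the endothelial kdrl promoter drives a green fluorescent protein. The series' design text counts heterozygotes among the controls, so these are called siblings. The sources used here give neither the tie1 allele nor how many hearts made a pool. The question was which genes of the heart differ when tie1, an endothelial receptor tyrosine kinase gene, is mutated.

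Heart formation in vertebrates rests on a small network of DNA-binding proteins that act together on the same enhancers. The zinc finger proteins Gata4, Gata5 and Gata6, the homeodomain protein Nkx2.5, the basic helix-loop-helix protein Hand2 and the MADS-box protein Mef2c activate genes of heart muscle. T-box proteins divide the tube into regions: Tbx5 and Tbx20 act in the chambers, while Tbx2 and Tbx3 repress chamber genes in the atrioventricular canal and in pacemaker tissue.

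The deposited values are normalised and rounded by the authors, and their spacing at low values gave an estimated 1770000 to 3240000 assigned reads per library. Mitochondrial genes took 46.2% and 39.8% of the total in the mutants, against 34.8% and 32.1% in the siblings. The targeted gene, tie1, had values of 123 and 88 in the mutants, against 558 and 300 in the siblings, so the libraries labelled as mutant had the lower values, with a limma adjusted p of 0.148. That adjusted p was 0.0431 when the minimum mean was 50 and 0.0413 with robust empirical Bayes. Nothing beyond the labels says that the pools are separate clutches, so the p-values reflect spread among pools that may be technical. With 2 against 2 libraries an exact two-sided permutation test cannot go below p = 0.333, and none is given for single genes.

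None of the 10 factor genes passed the threshold between mutant and sibling hearts, an adjusted p under 0.05 in limma, where 0 of the 12118 tested genes passed (0%). At an unadjusted p under 0.05, 1 of the 10 was lower and 0 higher, against 4.34% and 2.61% of all tested genes. The mutant mean was lower for 7 genes and higher for 3, with a median log2 fold change of −0.20, while over all tested genes 50.3% were lower and the median was −0.0016. In 5 of the 10, namely mef2ca, gata5, tbx5a, gata6 and hand2, each mutant value was below each sibling value, and in 0 genes each was above. This held for 18.3% and 15.7% of all tested genes. In the remaining 5 genes the groups overlapped. Each log2 fold change is a difference of log2(value + 1), given with its standard error (SE), and it slightly understates changes of low genes such as tbx3a.

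**Figure D1:**
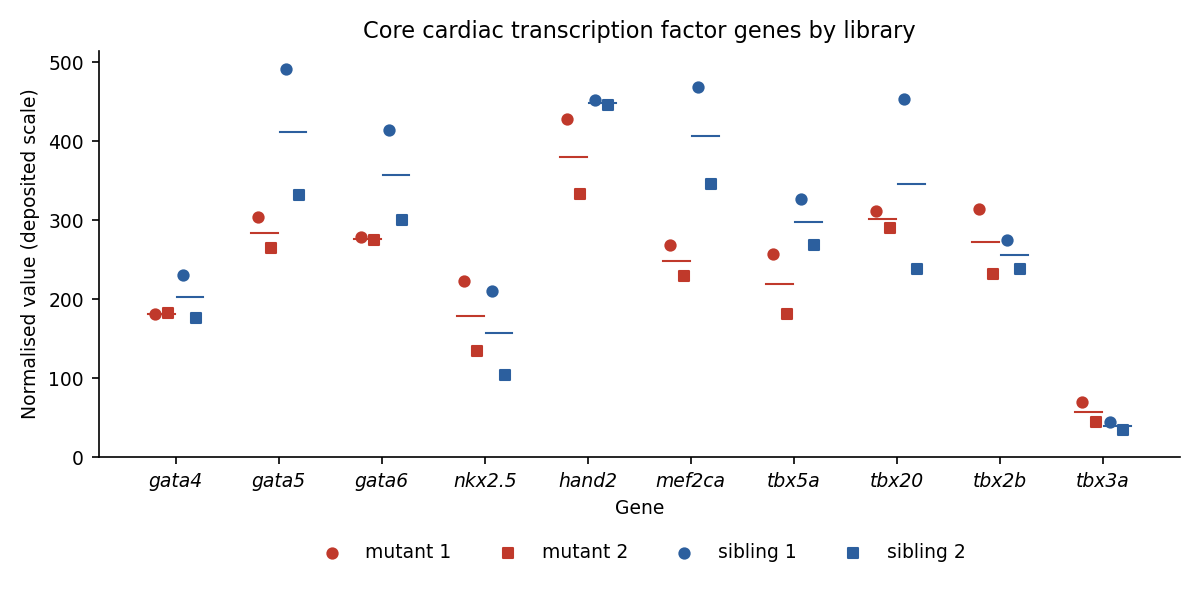
Normalised value (deposited scale, linear axis from 0) of the 10 factor genes in each library, with circles for library 1, squares for library 2 and a line at each group mean. The 2 mutant points of mef2ca (269 and 229) and gata5 (304 and 265) sit below both sibling points, while those of nkx2.5 and tbx20 overlap with them. Heights of different genes are not comparable, since no correction for transcript length was made.

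The 3 GATA genes had lower mean values in the mutants, but only gata5 and gata6 separated the groups. In zebrafish, Gata5 and Gata6 together are needed to make heart muscle cells, and Gata5 also acts in endoderm. For gata5 (ENSDARG00000017821, plus strand of chromosome 23, 7379728 to 7391028 of GRCz11) the values were 304 and 265 in the mutants, against 492 and 332 in the siblings. Both mutant libraries were thus below both siblings, and sibling 1 stood above the other 3 libraries. The means were 284.5 ± 27.6 and 412.0 ± 113 (SD, n = 2 each), a fold of 0.703, with a log2 fold change of −0.51 ± 0.24 (SE, 95% interval −1.06 to 0.04) and a limma adjusted p of 0.737. It was −0.23 without sibling 1 and −0.79 without sibling 2.

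For gata6 (ENSDARG00000103589, plus strand of chromosome 2, 4207209 to 4217887) the mutants had 279 and 275 and the siblings 415 and 300. The mutant libraries were nearly equal, and sibling 2 lay closer to them than to sibling 1. The fold was 0.786 and the log2 fold change −0.35 ± 0.23, with a limma adjusted p of 0.811, and it was −0.12 without sibling 1 and −0.58 without sibling 2. The values of gata4 (ENSDARG00000098952, minus strand of chromosome 20, 52952116 to 52967878), a gene whose mammalian counterpart is mutated in septal defects, were 181 and 183 against 231 and 176. Here sibling 2 was the lowest of the 4 libraries and the groups overlapped, with a log2 fold change of −0.15 ± 0.22 and a limma adjusted p of 0.932. Without sibling 1 it was 0.05, so the direction for gata4 rested on that library.

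Of the remaining activators, mef2ca had the largest log2 fold change in size of the 10 genes. Mef2ca acts in the differentiation of heart muscle and also in the pharyngeal arches. The gene (ENSDARG00000029764, minus strand of chromosome 10, 43544814 to 43655449) had 269 and 229 in the mutants, against 469 and 346 in the siblings. Both mutant values were well below the lower sibling, with a gap wider than that between the 2 mutants. The means were 249.0 ± 28.3 and 407.5 ± 87.0 (SD, n = 2 each), a fold of 0.617. The log2 fold change of −0.70 ± 0.23 had a 95% interval from −1.22 to −0.18, an unadjusted p of 0.0145 and a limma adjusted p of 0.586. It lay at percentile 5.48 of all tested genes. Leaving out 1 library at a time gave values from −0.92 to −0.48.

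For hand2 (ENSDARG00000008305, minus strand of chromosome 1, 38193147 to 38195012), the factor missing in the zebrafish mutant hands off, which lacks most heart muscle, the values were 428 and 333 against 452 and 446. The siblings were nearly equal and mutant 1 lay just below them, so that mutant 2 carried most of the difference. The log2 fold change was −0.25 ± 0.21 with a limma adjusted p of 0.858, and it was −0.07 without mutant 2. The groups of hand2 overlapped after quantile normalization and after scaling without mitochondrial genes.

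For nkx2.5 (ENSDARG00000018004, plus strand of chromosome 14, 24241241 to 24244034), which with its relative Nkx2.7 maintains ventricular identity in zebrafish, the values were 223 and 135 against 210 and 104. The libraries numbered 1 were high and those numbered 2 low in both groups, and the groups overlapped. The 2 siblings differed 2.02-fold, a log2 difference of 1.01 where counting error on the estimated 282 and 119 reads has a standard error of 0.16. The log2 fold change of 0.23 ± 0.36 carried the largest SE of the 10 genes, with a limma adjusted p of 0.933. Its direction turned to −0.13 without mutant 1 and to −0.27 without sibling 2.

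**Figure D2:**
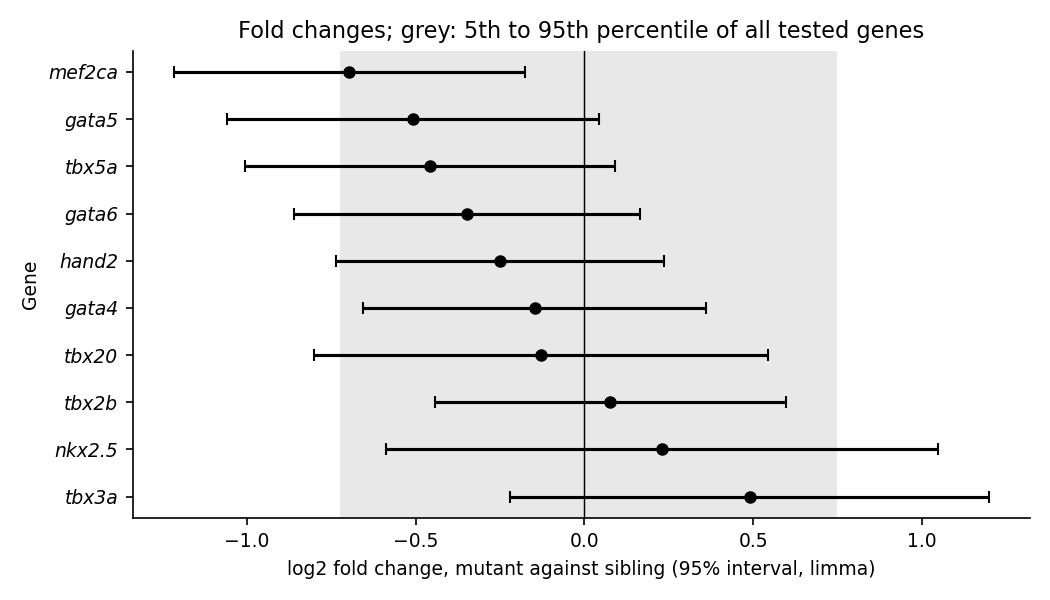
Log2 fold change of each factor gene, mutant against sibling, as a point with its 95% interval from limma, and in grey the range from the 5th to the 95th percentile of all tested genes (−0.72 to 0.74). All 10 points lie within the grey range, with mef2ca at −0.70 nearest to its lower edge, and its interval is the one that does not include 0.

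Among the T-box genes, the chamber factor tbx5a had lower values in both mutants, while the canal and pacemaker repressors tbx2b and tbx3a did not. The zebrafish mutant heartstrings lacks Tbx5a and has a stretched heart and no pectoral fins. The gene (ENSDARG00000024894, minus strand of chromosome 5, 72264192 to 72289648) had 257 and 181 in the mutants, against 327 and 269 in the siblings. Mutant 1 and sibling 2 were close, and mutant 2 was the lowest library. The fold was 0.728 and the log2 fold change −0.46 ± 0.24 (95% interval −1.01 to 0.09), with a limma adjusted p of 0.764. Leaving out mutant 2 gave −0.21 and leaving out mutant 1 gave −0.71.

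The second chamber factor, tbx20 (ENSDARG00000005150, minus strand of chromosome 16, 42509011 to 42523744), had 312 and 291 in the mutants, against 454 and 239 in the siblings. Both mutants lay between the 2 siblings, which differed 1.90-fold. Its log2 fold change was −0.13 ± 0.30, with a limma adjusted p of 0.958, and it turned to 0.33 without sibling 1.

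For tbx2b (ENSDARG00000006120, plus strand of chromosome 15, 27364394 to 27371340) the values were 314 and 232 against 275 and 238. The mutants enclosed the siblings, with a log2 fold change of 0.08 ± 0.23 and a limma adjusted p of 0.968, which turned to −0.14 without mutant 1 and −0.03 without sibling 2. The values of tbx3a (ENSDARG00000002216, minus strand of chromosome 5, 72316803 to 72324371) were 70 and 45 against 45 and 35. The lower mutant equalled the higher sibling. The log2 fold change was 0.49 ± 0.31 (95% interval −0.220 to 1.199), with a limma adjusted p of 0.806. It ranged from 0.18 to 0.80 when 1 library was left out. Only an estimated 34 to 63 reads per library stood behind tbx3a, against at least 101 for each of the other 9 genes. At 34 reads counting error alone is 17.1% of the value, so a difference of this size in tbx3a is close to what this depth can show.

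Ratios between these genes within a library do not depend on how the libraries are scaled to each other, and several separated mutants from siblings, also where 1 of the 2 genes overlapped between the groups. All pairs given were chosen after the values were seen and have no test. How often pairs of other genes separate in this way was not examined. The ratios of tbx5a to tbx20 (0.824 and 0.622 against 0.72 and 1.13) and of nkx2.5 to hand2 (0.521 and 0.405 against 0.465 and 0.233) overlapped between the groups. The genes tbx5a and tbx3a are neighbours in a tandem arrangement, on the same strand with 27.2 kb between them and no other gene of the table in between. The ratio of tbx5a to tbx3a was 3.67 and 4.02 in the mutants, against 7.27 and 7.69 in the siblings. The 2 mutants were close to each other, as were the 2 siblings, and the groups did not overlap. Only an estimated 34 to 63 reads per library stood behind tbx3a, with a counting error of 17.1% at 34 reads. The closeness within groups is therefore no measure of how precise this ratio is. The ratio of tbx5a to tbx2b was 0.818 and 0.780 against 1.19 and 1.13, again with both mutants below both siblings.

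Within the GATA genes, the ratio of gata5 to gata4 was 1.68 and 1.45 in the mutants, against 2.13 and 1.89 in the siblings. The ratio of gata6 to gata4 differed less, with 1.54 and 1.50 against 1.80 and 1.70. For mef2ca relative to gata4 the ratio was 1.49 and 1.25 against 2.03 and 1.97. For gata6 and mef2ca relative to gata4 the siblings lay close together even though their single values differed. For gata5 to gata4 the siblings lay about as far apart as the mutants did.

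**Figure D3:**
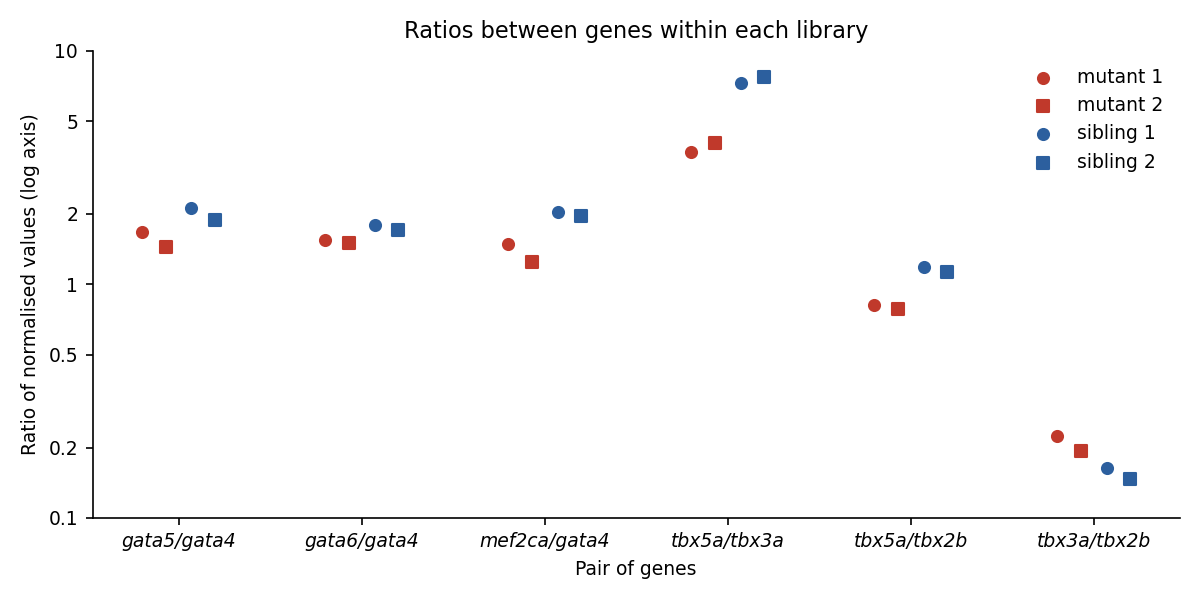
Ratio of the normalised values of 6 pairs of factor genes in each library, on a log axis, with mutants in red, siblings in blue, circles for library 1 and squares for library 2. For tbx5a to tbx3a the mutants sit at 3.67 and 4.02 and the siblings at 7.27 and 7.69, and the ratio of tbx3a to tbx2b is higher in both mutants (0.223 and 0.194) than in both siblings (0.164 and 0.147).

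The factor genes varied together between libraries of the same group. Sibling 1 was above sibling 2 in all 10 genes and mutant 1 above mutant 2 in 9 of the 10, where the same was true of 49.3% and 49.5% of all tested genes. The median deviation of the 10 genes from their sibling mean was −0.12 in mutant 1 and −0.27 in mutant 2 on the log2 scale, with the siblings at 0.21 and −0.21. The heart muscle gene myl7, which encodes a myosin light chain of all heart muscle, followed the same order within groups, with 3842 and 1966 in the mutants, against 3595 and 2469 in the siblings. In pooled tissue, fewer cells of a type and less RNA per cell cannot be told apart.

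**Figure D4:**
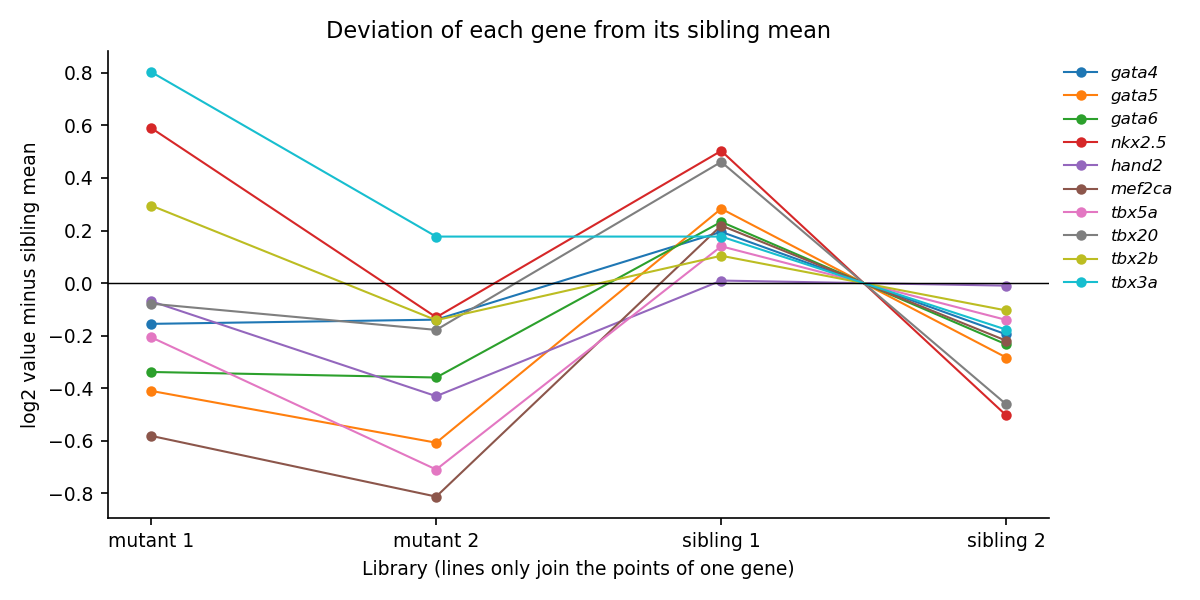
Log2 value of each factor gene in each library minus its mean over the 2 siblings, with a line per gene that only joins its points. In all 10 genes sibling 1 is above sibling 2, and mef2ca is the lowest gene in both mutants, at −0.58 and −0.81, while tbx3a is the highest in both, at 0.80 and 0.18.

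Set against myl7, mef2ca was still lower in both mutants. Per 1000 units of myl7 it had 70.0 and 116 in the mutants, against 130 and 140 in the siblings, whereas tbx3a had 18.2 and 22.9 against 12.5 and 14.2. The groups overlapped for the other 8 genes, including gata5, at 79.1 and 135 against 137 and 134, and tbx5a, at 66.9 and 92.1 against 91.0 and 109. For gata5 and tbx5a, mutant 2 therefore reached at least the lower sibling with myl7 as the reference. Per 1000 units of the troponin gene tnnt2a this was not so, with gata5 at 61.9 and 92.6 against 100 and 96.4 and tbx5a at 52.3 and 63.2 against 66.5 and 78.1. The ratio to myl7 was lower in the mutants for 7 of the 10 genes, with a median log2 difference of −0.08. With tnnt2a as the reference it was lower for 6, and with the median of 9 heart muscle markers, which include the ventricular myosin gene myh7, for 4. Both mutants lay below both siblings in 3 genes and above in 2 with tnnt2a, and in 1 and 3 with the marker median. Relative to cdh5, the endothelial cadherin gene, 1 of the 10 was lower, mef2ca, with overlap between the groups (205 and 290 against 249 and 310). With cdh5, both mutants lay above both siblings in 3 genes and below in 0. The share of all tested genes that separate in such ratios was not computed.

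Markers of heart muscle and of other cells in the pools differed in value as well, and their part in the results above was not tested. The summed value of 9 tested heart muscle markers was 69977 and 44219 in the mutants, against 108823 and 66634 in the siblings. These sums overlapped between the groups, and 8 of the 9 markers were lower. Of these 9, 4 were lower without mutant 2 and 5 without sibling 1, with median log2 fold changes of 0.018 and −0.038 in place of −0.32. Of 11 tested rows of skeletal muscle markers, a tissue in which mef2 genes are also active, 10 were lower. In 6 each mutant value was below each sibling value, as in 18.3% of all tested genes. The rows summed to 1562 and 1708 against 2898 and 2713. Most came from acta1b (962 and 748 against 1359 and 1316) and ckma (464 and 428 against 879 and 682). The mutants were alike in some rows, as in ckmb (29 and 29 against 110 and 114). In others mutant 1 alone was low, as in mylpfa (12 and 117 against 103 and 141), and myog was at 0 in mutant 1. For fin mesenchyme, where tbx5a is active, 2 of 3 tested markers were lower, and the 5 markers in the table summed to 267 and 344 against 366 and 398. The lower sum rested on and2, with 22 and 39 against 139 and 108. The groups overlapped for prrx1a (52 and 120 against 66 and 105), and sall4 was higher in both mutants (179 and 176 against 155 and 172). In the epicardial list, the outer layer of the heart, 5 of 6 were lower, with 275 and 386 against 447 and 435.

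Markers of gut, liver and pharyngeal endoderm, where gata4, gata5 and gata6 are also active, went the other way. All 6 tested markers were higher, and in 3 each mutant value was above each sibling value, as in 15.7% of all tested genes. These 3 were tg, nkx2.4b (56 and 9 against 3 and 3) and foxa1 (18 and 17 against 9 and 10). The 9 in the table summed to 549 and 1213 in the mutants, against 223 and 311 in the siblings. Much of this came from tg, with 279 and 173 against 45 and 20, and tfa, with 152 and 882 against 146 and 219. The groups overlapped for tfa, foxa2 and foxa3. Outside mutant 2, 3 untested markers were at 3 or below. They had 0 and 20 against 0 and 1 for fabp10a, 0 and 19 against 1 and 3 for hnf1ba and 0 and 24 against 3 and 3 for hnf4a. Of 10 markers of pharyngeal arches and neural crest, where hand2 and mef2ca are active, 8 were higher. Their sums overlapped between the groups, at 739 and 1069 against 619 and 781. Both mutants lay above both siblings in 3 and below in 1, against 15.7% and 18.3% of all tested genes. For neurons and retina, where tbx2b is active, all 4 tested markers were higher. The 7 in the table summed to 443 and 191 against 263 and 73, with overlap between the groups and snap25b at 0 in mutant 2. Without sibling 2, 2 of the 4 tested markers were lower. Endothelial markers, tie1 among them, were lower in 9 of 10. Their sums overlapped between the groups, at 3509 and 2146 against 5539 and 3460. In 5 of the 10 each mutant value was below each sibling value, as in 18.3% of all tested genes. All 9 tested rows of erythrocyte markers were lower, at 3401 and 3382 against 8996 and 8395.

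Other transcription factor genes of the heart, pooled with cofactor genes, had a median nearer to 0. Taken alone, the list of MEF2 factors, SRF and their partners had a median of −0.18, which turned to 0.10 without sibling 1. Over 5 lists with 98 genes, cofactor and chromatin genes included, 74 were tested. Of these 74, 39 were lower and 35 higher, with a median log2 fold change of −0.04. Both mutants lay below both siblings in 24.3% of them and above in 14.9%, against 18.3% and 15.7% of all tested genes. None passed an adjusted p under 0.05 in limma, where the smallest was 0.569, and at an unadjusted p under 0.05, 3 were lower and 2 higher, against 4.34% and 2.61% of all tested genes. Whether the 10 genes differ from these 74 was not tested.

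The paralogs of the 10 genes did not always share their direction. For tbx2a, the paralog of tbx2b, the values were 200 and 233 in the mutants, against 181 and 178 in the siblings, with both mutants higher and a log2 fold change of 0.26 ± 0.21. For mef2cb, the paralog of mef2ca, they were 77 and 81 against 123 and 70, with overlap between the groups and a log2 fold change of −0.23 ± 0.30. The low values of tbx5b were 21 and 16 against 19 and 12. Those of nkx2.7 were 50 and 37 against 49 and 49, and both of these genes overlapped between the groups. Counting may split reads between near-identical stretches of paralogs, so their single values are uncertain.

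Among partners of these factors, zfpm1, which encodes the GATA cofactor Fog1, had 230 and 256 in the mutants, against 445 and 286 in the siblings, a log2 fold change of −0.55 ± 0.25 with a limma adjusted p of 0.718. Both mutants were lower, whereas the groups overlapped for zfpm2a (82 and 67 against 79 and 57) and zfpm2b (25 and 25 against 26 and 22). In this list of 9 tested genes, both mutants lay below both siblings in 4 and above in 2, against 18.3% and 15.7% of all tested genes. The blood and endothelial factor gene gata2a had 8 and 9 against 28 and 19, at −1.34 ± 0.45, and trps1, which encodes a GATA-type repressor, had 152 and 248 against 94 and 119, at 0.87 ± 0.28. Their adjusted p in limma was 0.586 and 0.569. In the MEF2 list, mef2d had 268 and 245 against 407 and 288 and hdac9b, which encodes a histone deacetylase that binds Mef2 proteins, 88 and 85 against 122 and 95. Both genes had lower values in each mutant than in each sibling, at −0.42 ± 0.23 and −0.31 ± 0.24. They were the 2 that did so among 8 tested genes of the MEF2 list, against 18.3% of all tested genes. Without sibling 1, zfpm1 was at −0.24, mef2d at −0.17 and hdac9b at −0.13. The homeobox genes meis2b, with 79 and 108 against 72 and 45, and isl2a, with 65 and 63 against 51 and 33, were higher in both mutants, at 0.69 ± 0.30 and 0.63 ± 0.29, or 0.36 and 0.32 without sibling 2. The Notch target genes hey2, a ventricular factor, and heyl went in opposite directions, with 28 and 15 against 57 and 38 for hey2 and 22 and 20 against 9 and 3 for heyl. The epicardial T-box gene tbx18 had 11 and 28 against 37 and 37.

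Heart muscle genes on which these factors act had mostly lower mutant means, but how many depended on single libraries. Of 24 tested rows of chamber and contractile genes of heart muscle, 22 were lower and 2 higher, against 50.3% lower over all tested genes. The median log2 fold change was −0.35, and 0 passed an adjusted p under 0.05 in limma. At an unadjusted p under 0.05, 6 were lower and 0 higher, against 4.34% and 2.61% of all tested genes. These 6 rows were myh7, myh7l, myl4, gja5b and both rows of actc1a, so actc1a counts as 2 of the 6. The values of myh7l (14781 and 8122 against 36842 and 20593) were close to those of myh7. Whether myh7 and myh7l share reads was not examined. The 2 higher rows were nppa and nppb, at 0.05 ± 0.41 and 0.72 ± 0.33 on the log2 scale. For nppb the mutants had 618 and 289, each above the siblings at 259 and 255, with mutant 2 close to the siblings. The groups overlapped for nppa (mutants 7480 and 3477, siblings 6312 and 3856). Without mutant 2 or without sibling 1, 14 of the 24 were lower, with medians of −0.14 and −0.074, and the median was −0.61 without mutant 1 or without sibling 2. The actin gene actc1a has 2 rows that may share reads, one with 2 and 8 in the mutants, against 54 and 44 in the siblings, and one with 864 and 767 against 1309 and 1140. The gap junction gene gja5b had 22 and 9 in the mutants, against 63 and 38 in the siblings, a log2 fold change of −1.72 ± 0.46, and myh7 had 13077 and 7093 against 31906 and 21256. In the list of the atrioventricular canal and cardiac jelly, the territory of tbx2b and tbx3a, 9 of 15 were lower and the median was −0.23, which turned to 0.086 without mutant 2. The link protein gene hapln1a was higher in both mutants, at 1.03 ± 0.28, and the neuregulin gene nrg1 had 9 and 7 against 25 and 27. Of 13 tested signals that induce or pattern heart progenitors, gata5 among them, 6 were lower and 7 higher, with a median of 0.04. The retinoic acid synthesis gene aldh1a2, with 66 and 71 against 47 and 52, was higher in both mutants.

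**Figure D5:**
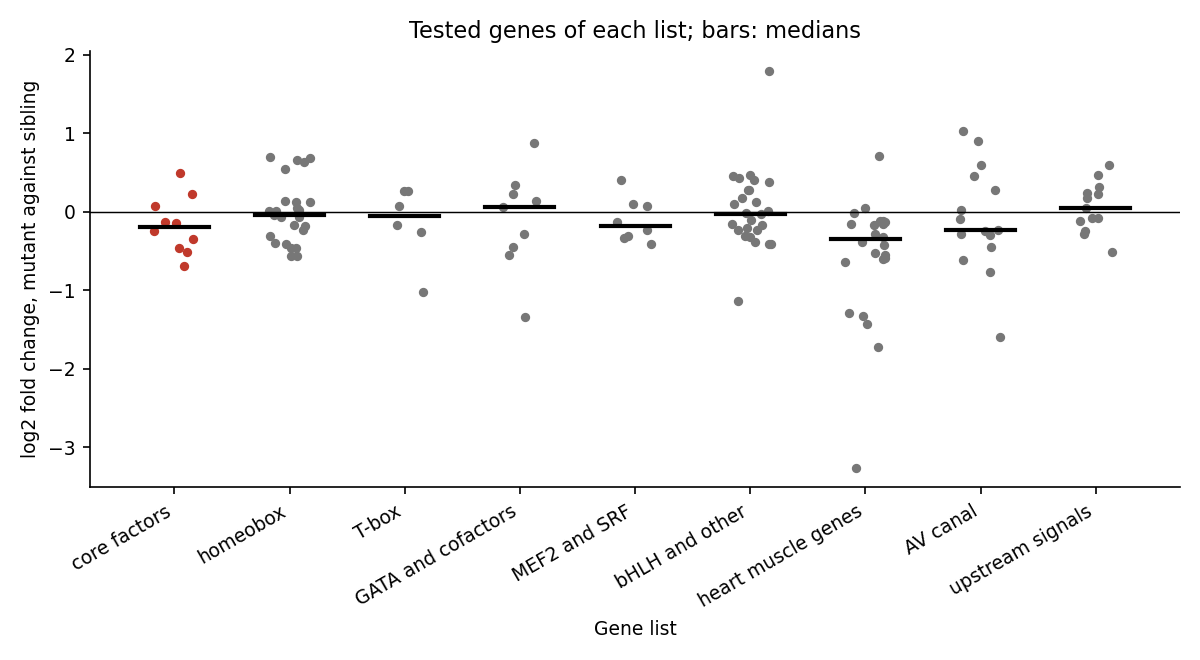
Log2 fold change, mutant against sibling, of every tested row of the 10 core factor genes (red) and of 8 lists of related genes (grey), with a black bar at each median. The heart muscle list has the lowest median, −0.35. The core factors stand at −0.20 and the MEF2 and SRF list at −0.18, while the homeobox, T-box and bHLH lists lie near 0.

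At their loci, none of the 10 genes overlapped another gene of the table. The nearest was AL954322.2, a long intergenic RNA gene on the opposite strand 257 bases below the start of tbx2b, with 32 and 31 in the mutants, against 40 and 31 in the siblings. Whether reads were counted by strand is not known from the sources used here, so reads near their ends may be shared. In the deposited annotation the Gene Ontology term heart development was attached to 8 of the 10 genes and to 215 of the 7021 annotated genes, while hand2 and mef2ca carried no term there.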

How the data were processed

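RNA of 4 pools of zebrafish hearts was sequenced from a total RNA kit for very small inputs, per the labels' protocols. The submitters' processing notes name STAR 2.4.0a, featureCounts 1.4.5-p1 and the build GRCz11, without roles. The authors deposited values that they had normalised and rounded to whole numbers, per the name of the table, which are treated as a score and not as reads. Their normalization method is not known from the sources used here. The spacing of low values gave estimated reads per unit of 0.904 and 0.75 (mutants) and 1.341 and 1.146 (siblings). Where the factor exceeds 1, rounding merges reads, so no test for read counts was used. Intervals on reads cover counting error only.

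Values were analysed as log2(value + 1), for genes with a mean of at least 10, with limma 3.58.1 in R 4.3.3 (mean-variance trend, Benjamini-Hochberg over all 12118 tested genes, two-sided), and the script was tested on simulated data. There, 5.6% of genes with a simulated 2-fold change and 58% of those with a 4-fold change passed. Of the 10 genes, mef2ca changed most, with a fold of 0.617, which is less than a 2-fold change. That none passed therefore does not show that they were unchanged. The alternatives were other pseudocounts, filters, scalings and variance settings, a replicate block and leaving out each library. Members and lists were chosen with earlier results of these data known. Named genes were drawn from the members and their paralogs. From each list, further genes were drawn from the 3 with the highest mean and the 2 with the smallest p. Not all of these are named. In the 5 lists of other factor genes, those named were mostly the ones with the smallest p, and highly expressed genes such as meis1b, pbx4 and smarca4a were left out. The genes myl7, tnnt2a and cdh5 served as references. The neighbour of tbx2b, untested markers, some further list genes and the Iroquois genes stand outside that rule. Levels of different genes were not compared per length, since no transcript lengths were used here.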

Additional observations from a re-analysis of the deposited data

How the results depend on the processing

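None of the 10 factor genes passed an adjusted p under 0.05 in limma in any of the 12 alternatives, where the lowest adjusted p was 0.105, for mef2ca with the replicate block. Over all genes, 0 passed in the main fit, which had no block, and 95 with the replicate block. Also without a block, 16 passed with robust empirical Bayes, 13 when the minimum mean was 50 and 4 after scaling to the total without mitochondrial genes. With the replicate block, tie1 (adjusted p = 0.00138 in limma), myh7 (0.00138) and gja5b (0.0497) passed. Mutant 1 and sibling 1 deviated from their group means with a correlation of 0.198 over genes; the labels do not say that the numbers pair the pools. The median log2 fold change of the 10 genes ranged from −0.46 (without sibling 2) to −0.033 (without sibling 1), and 5 to 9 of the 10 were lower when a library was left out. Without 1 library at a time, nkx2.5 ranged from −0.27 to 0.73, gata4 from −0.34 to 0.048, tbx20 from −0.59 to 0.33 and tbx2b from −0.14 to 0.29, and the other 6 genes kept their direction. Other genes that changed direction in this way were tbx5b (−0.049 to 0.57), mef2cb (−0.63 to 0.17), nkx2.7 (−0.40 to 0.029), irx2a (−0.67 to 0.21) and irx4a (−1.14 to 0.52). With heart muscle markers as the reference in place of myl7, 4 genes in place of 7 were relatively lower, and 1 with cdh5, a reference chosen after seeing the data. The cause of these changes was not tested. In the 8 other alternatives, scaling included, all 10 genes kept their direction where tested; tbx3a, with a mean under 50, was not tested in 1 of them. Depth limits tbx3a most.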

Other observations

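Iroquois homeobox genes, which help to set the identity of heart chambers in vertebrates, had mostly lower mutant values. Of the 6 tested, 6 were lower, against 50.3% of all tested genes, with a median log2 fold change of −0.40, and in 3 each mutant value was below each sibling value, as in 18.3% of all tested genes. The values were 106 and 121 in the mutants, against 182 and 135 in the siblings for irx1a, 133 and 120 against 170 and 164 for irx3a, and 94 and 103 against 128 and 134 for irx5a. These 3 genes had log2 fold changes of −0.47 ± 0.24, −0.40 ± 0.21 and −0.41 ± 0.22, while irx2a, irx3b and irx4a overlapped between the groups. None passed an adjusted p or an unadjusted p under 0.05 in limma, and the family was singled out after its values were seen. Without sibling 1 irx2a was at 0.21, and without mutant 2 irx4a was at 0.52. Below the minimum mean, irx1b had 10 and 4 against 6 and 1 and irx5b 12 and 4 against 6 and 7. Values this low cannot show whether irx1b and irx5b share the direction of the tested genes.

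The profile of the 10 factor genes over the libraries, averaged after centring each gene, was 0.07 and −0.25 in the mutants, against 0.32 and −0.15 in the siblings on the log2 scale. The gene closest to it was pcmt, a protein repair methyltransferase gene, with 75 and 60 against 89 and 64 and a root-mean-square difference of 0.0034, followed by rab35b at 0.0141 and pard6a at 0.0168. Over 4 libraries, 348 genes came within 0.1 of this profile, so such likeness is common and is given as a description.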
